A study of Homo sapiens with 6 samples.

Results

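Actin cytoskeleton and SRF target genes were examined in LNCaP cells overexpressing Gα13. The members are 49 genes chosen by symbol for their role: the actins, the proteins that nucleate, cap, sever, bundle and move actin filaments, and serum response factor (SRF) with its coactivators. The members were chosen with earlier results of these data known, so their shares beside all genes are descriptions. All 49 were among the 17297 genes of the deposited count table and 0 were absent. Averaged over the libraries, 46 reached 1 CPM (read counts scaled to a common library size, here with TMM normalization), and MYL9, CNN3 and FHL2 lay under it. LNCaP is an established human prostate cancer cell line of luminal character. It was transduced with the empty retroviral vector pBabe-puromycin (pBabe-vector) or with the same vector carrying wild-type GNA13 cDNA (pBabe-GNA13), so that both lines carried the puromycin vector. Plates of 3 biological replicates of each line were grown for 48 h before RNA extraction. Each condition is 1 stable line, so p-values measure the spread between cultures of those lines and not between independently made lines. Whether a line was a clone or a pool was not given in the sources used here.

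Gα13, the product of GNA13, is the alpha subunit of a heterotrimeric G protein best known for signalling to the actin cytoskeleton. Actin filaments grow from free monomer, are branched, capped, severed and bundled by dedicated proteins, and contract with nonmuscle myosin. When free actin monomer is used up, the coactivators MKL1 and MKL2 (myocardin-related transcription factors) are released into the nucleus, where they act with SRF at CArG boxes in the genes of actin and of actin-binding proteins.

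Promoter sequence was looked up for the members because SRF is known to bind the CArG box. RefSeq windows from 250 bases before to 50 bases after the transcription start were at hand for 44 members (GRCh38.p14). The members without one were ACTB, ARPC1B, PFN2, MYL9 and TAGLN. Both strands were searched, which is 1 search since the CArG box is its own reverse complement. A box was found in 7 of the 44, or 15.9%, against 1.60% of the 27305 gene symbols in the whole table. Of its 35116 windows of the same length 1.29% held one. The members were listed partly as SRF and its known targets, so this contrast is not an independent result. Each stretch below is printed from 5′ to 3′ on the strand of the gene, with the CArG box in capitals. Those of ACTG1, TPM4, CNN2, ACTN1 and FLNA are shown because these genes differ between the lines in the results that follow, and that of SRF because it holds 2 boxes.
ACTG1, chr17:81512864-81512913, minus strand, box starting 94 bases before the start: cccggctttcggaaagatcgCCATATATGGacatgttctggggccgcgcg
TPM4, chr19:16067345-16067394, plus strand, 173 bases before: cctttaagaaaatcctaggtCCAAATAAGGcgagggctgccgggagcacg
CNN2, chr19:1026499-1026548, plus strand, 89 bases before: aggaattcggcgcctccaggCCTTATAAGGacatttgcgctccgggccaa
ACTN1, chr14:68977708-68977757, minus strand, 171 bases before: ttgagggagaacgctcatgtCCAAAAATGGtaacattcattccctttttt
FLNA, chrX:154374699-154374748, minus strand, 94 bases before: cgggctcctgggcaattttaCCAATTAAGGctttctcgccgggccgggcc
SRF, chr6:43171219-43171268, plus strand, 30 and 10 bases before: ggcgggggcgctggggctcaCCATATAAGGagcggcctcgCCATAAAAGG
The remaining gene with a box, FHL2, had 2 different ones in its windows. A match describes these letters only, and the absence of one says nothing of SRF outside the window or at a variant box within it.

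The libraries held 33002160 to 40628970 counts, so that 1 read equalled 0.0238 to 0.0312 CPM. GNA13 itself was 11.6-fold higher in pBabe-GNA13 (818 ± 69.6 against 70.5 ± 5.72 CPM, SD, n = 3 each). All 10 luminal prostate markers examined were in the table, with a summed level of 5650 to 9320 CPM, and the cells are labelled as prostate cancer cells. Summed levels of 5 basal epithelial markers were 4.49 to 11.0 CPM in pBabe-GNA13 and 2.48 to 3.02 CPM in pBabe-vector, with KRT5 and KRT6A at 0 in replicate 2 of both lines. Of 7 smooth muscle markers 4 were in the table (DES, ACTG2 and SYNPO2 were not), and their sum was 37.3 to 51.2 CPM in pBabe-GNA13 and 59.1 to 72.8 CPM in pBabe-vector. Nearly all of that sum was smoothelin (SMTN), at 35.9 to 50 and 58.1 to 72.1 CPM. The other 3 averaged under 1 CPM and went the other way. Their log2 fold changes were 0.56 in MYH11, 0.06 in LMOD1 and 3.56 in CNN1, which had 0 to 3 reads. The sum of 8 fibroblast markers was 18.0 to 26.6 and 12.8 to 24.2 CPM, with COL1A2 at 0 in replicate 2 of both lines. The part of such cells in the members' differences was not tested. In bulk RNA, fewer cells of a type and less RNA per cell cannot be told apart.

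The first question was whether overexpressing Gα13 changed the level of these genes. The libraries fall into 3 pairs, the std library with pBabe-vector replicate 1 (both carry the tag std), replicate 2 with replicate 2, and replicate 3 with replicate 3, and libraries of a pair deviated together from their group means. Both fits of edgeR's quasi-likelihood test are therefore given, with the line alone and with the pair as a block, each over all 17297 genes with Benjamini-Hochberg adjustment. A gene is called at an adjusted p under 0.05. With the line alone 0 of the 49 members were called, beside 0.139% of all genes (0.116% higher and 0.0231% lower), while 11 had an unadjusted p under 0.05, or 22.4% beside 8.46% of all genes, and 10 of these were lower (beside 3.68%). With the pair as a block 17 members were called, or 34.7% beside 19.7% of all genes. Of these 16 were lower in pBabe-GNA13 (32.7% beside 10.4%, or 12.5% of genes averaging 1 CPM or more) and 1 was higher (beside 9.32%). In DESeq2 without the block 3 members were called, beside 1.68% of the genes it tested.

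The members leaned to lower values in pBabe-GNA13. Their median log2 fold change was -0.09, against -0.0013 over all genes and -0.01 over genes with a mean of at least 1 CPM. It was -0.05 without pBabe-GNA13 replicate 2 or without pBabe-vector replicate 3, and -0.16 without pBabe-GNA13 replicate 3 or -0.15 without pBabe-vector replicate 2. A value below 0 was found in 38 of 49 members, or 77.6% beside 50.3% of all genes and 53.6% of genes averaging 1 CPM or more. Lower in 3 of 3 pairs were 26, or 53.1%, beside 25.3% and 29.0%. In 13 members the libraries of pBabe-GNA13 all lay below those of pBabe-vector, or 26.5% beside 6.79% and 7.49%. The only member with all 3 above was ARPC3, beside 7.30% of all genes. The lean differed in size between pairs, with medians of -0.02 in the std pair, -0.18 in replicate 2 and -0.11 in replicate 3. Together the members made up 1.02% to 1.31% of normalized counts in pBabe-GNA13 and 1.21% to 1.47% in pBabe-vector.

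**Figure D1:**
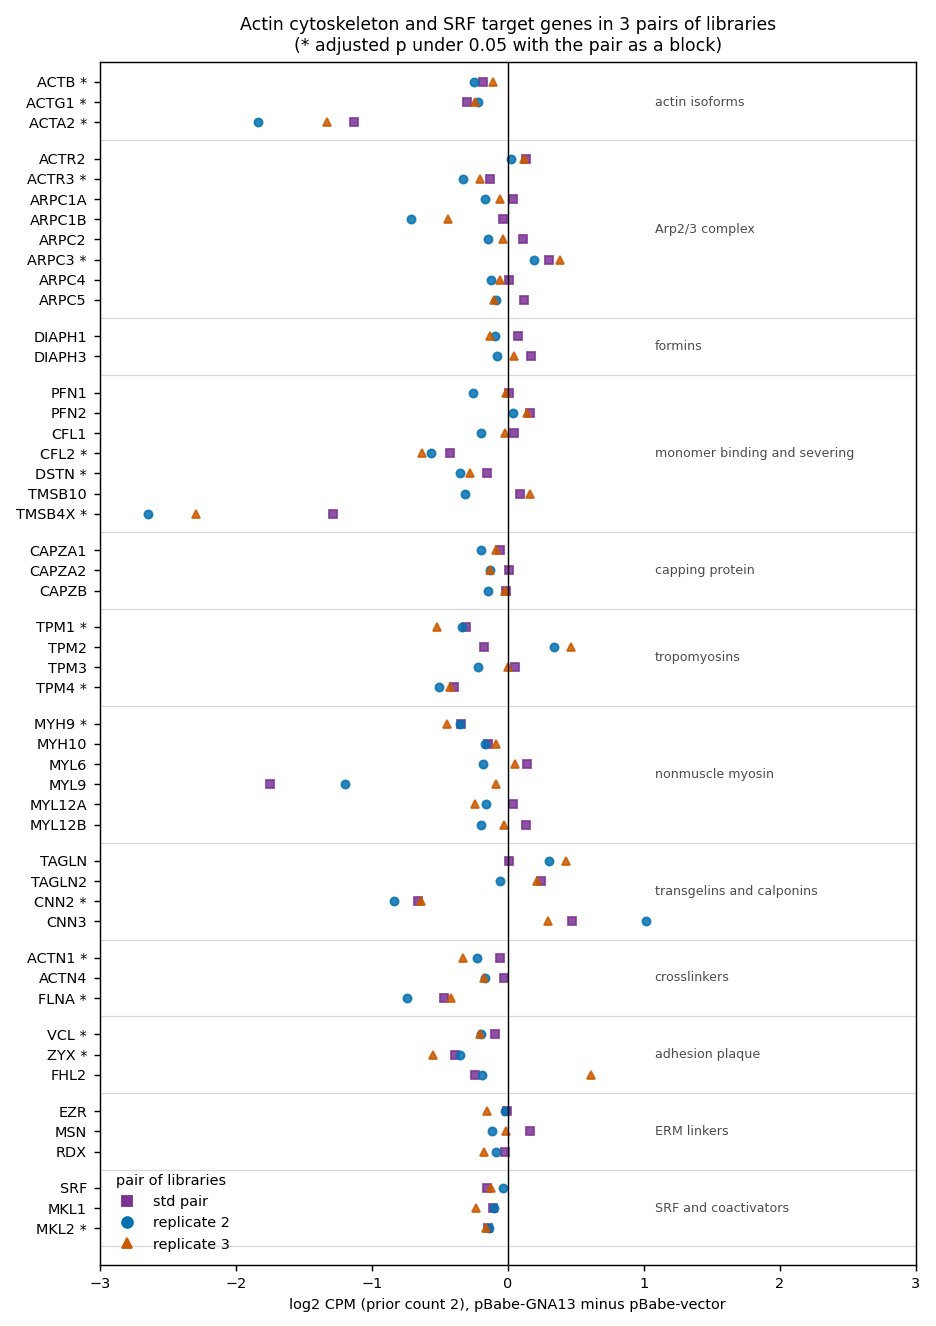
Difference in log2 CPM (prior count 2) between pBabe-GNA13 and pBabe-vector for each of the 49 members, grouped by role, with 1 point for each of the 3 pairs of libraries and an asterisk where the adjusted p was under 0.05 with the pair as a block. Most points lie a little left of 0, those of TMSB4X and ACTA2 lie far to the left in all 3 pairs, and ARPC3 is the only asterisk to the right.

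Below, library values are in CPM and are given in the order std library (replicate 1 in pBabe-vector), replicate 2, replicate 3. Log2 fold changes are pBabe-GNA13 minus pBabe-vector from the fit with the line alone unless said otherwise, with their standard error (SE). Adjusted p is from edgeR's quasi-likelihood test.

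All 3 actin isoforms were called lower with the block. ACTB encodes cytoplasmic β-actin and served the study as its reference gene in qPCR. It was counted at 2934, 2152 and 3234 CPM in pBabe-GNA13 and at 3325, 2557 and 3493 CPM in pBabe-vector. The groups overlapped widely, and the lowest library of each line was replicate 2. ACTB had a log2 fold change of -0.17 (SE 0.195) with an adjusted p of 0.93, which became 0.00743 with the block, a fall by 11.7%. ACTG1, cytoplasmic γ-actin, measured 1660, 1565 and 1890 CPM against 2045, 1819 and 2234 CPM. Its groups also overlapped, yet it was lower in 3 of 3 pairs (log2 fold change -0.25, SE 0.135, adjusted p 0.716, and 0.00027 with the block). ACTA2, the smooth muscle α-actin, was rare in these cells at 2.62, 1.67 and 1.80 CPM against 5.82, 6.14 and 4.61 CPM. Every pBabe-GNA13 library lay below every pBabe-vector library, by a log2 fold change of -1.44 (SE 0.233, adjusted p 0.119, and 2.76e-07 with the block). ACTA2 was also called by DESeq2 without the block (adjusted p 1.3e-05). The gene overlaps FAS, STAMBPL1 and ACTA2-AS1, and whether the counting used strand was not given in the sources used here, so part of these few reads may belong to a neighbour. ACTB and ACTG1 have many near-identical processed copies, which makes their counts uncertain in the same way.

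The largest difference among the members was in the proteins that bind actin monomer. TMSB4X encodes thymosin β4, which holds actin monomers in reserve. Its libraries stood at 11.9, 10.7 and 18.6 CPM in pBabe-GNA13 and at 29.2, 67.2 and 91.6 CPM in pBabe-vector. The groups did not overlap, but the pBabe-vector libraries spread widely among themselves, with the std library lowest. Leaving out each library in turn gave log2 fold changes from -2.53 to -1.81. TMSB4X fell by 76.6% with the block (adjusted p 1.98e-12), while with the line alone the log2 fold change of -2.19 (SE 0.412) had an adjusted p of 0.166. The difference was -1.29 in the std pair, -2.65 in replicate 2 and -2.30 in replicate 3 on the log2 scale, and DESeq2 called it without the block (adjusted p 8e-06). Its relative TMSB10, thymosin β10, was counted at 58.2, 50 and 34.4 CPM against 54.7, 62.3 and 30.6 CPM, in overlapping groups (log2 fold change -0.05, SE 0.284, adjusted p 0.852 with the block). The log2 ratio of TMSB4X to TMSB10 was -1.80 ± 0.793 in pBabe-GNA13 and 0.26 ± 1.25 in pBabe-vector, lower in 3 of 3 pairs (exact two-sided permutation p = 0.2, where 3 against 3 libraries cannot go below 0.1).

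CFL2, a cofilin that severs filaments and is abundant in muscle, was at 25.2, 22.2 and 30.6 CPM against 33.8, 32.8 and 47.6 CPM. Its groups did not overlap, and it fell by 31.3% with the block (log2 fold change -0.55, SE 0.184, adjusted p 0.429, and 7.33e-07 with the block). DSTN, destrin, a further severing protein, fell with the block too (log2 fold change -0.26, adjusted p 0.673, and 0.000611 with the block). However, its chromosome 20 had a median of -0.21 over the 337 genes used for centring, which averaged 1 CPM or more. With each chromosome centred on its median the value for DSTN was -0.05 (adjusted p 0.596). The main cofilin of nonmuscle cells, CFL1, had a log2 fold change of -0.05 (SE 0.135, adjusted p 0.505 with the block). The log2 ratio of CFL2 to CFL1 differed by -0.48 between the lines, lower in 3 of 3 pairs (exact permutation p = 0.1, the smallest possible, and 0.45 after adjustment over the 9 ratios of relatives examined). The profilins, which feed monomer to growing filaments, were not called. PFN2 measured 110, 129 and 109 CPM against 97.7, 126 and 99.2 CPM in overlapping groups (log2 fold change 0.11, adjusted p 0.129 with the block), and PFN1 had a log2 fold change of -0.08.

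Among the 8 subunits of the Arp2/3 complex, which starts branched filaments, 1 was called higher and 1 lower with the block. That is 12.5% lower, near the 10.4% of all genes called lower, and 9.32% of all genes were called higher. ARPC3 measured 122, 110 and 123 CPM against 98.7, 96.5 and 94.4 CPM. All pBabe-GNA13 libraries lay above all pBabe-vector libraries (log2 fold change 0.29, SE 0.0888, adjusted p 0.385, and 0.000193 with the block). ARPC3 lies on chromosome 12, whose 620 genes used for centring had a median log2 fold change of 0.29, and with each chromosome centred its own value was -0.00115. ACTR3 (Arp3) fell with the block (log2 fold change -0.21, SE 0.189, adjusted p 0.901, and 0.00282 with the block), in overlapping groups. Its partner ACTR2 (Arp2) was at 224, 198 and 207 CPM against 204, 195 and 190 CPM, which also overlap (log2 fold change 0.09, adjusted p 0.226 with the block). The other 5 subunits, ARPC1A, ARPC1B, ARPC2, ARPC4 and ARPC5, had log2 fold changes from -0.44 in the rare ARPC1B to -0.02 in ARPC2 and were not called. The formins DIAPH1 and DIAPH3, which elongate straight filaments, had log2 fold changes of -0.06 and 0.06, and the 3 subunits of capping protein (CAPZA1, CAPZA2, CAPZB) lay between -0.11 and -0.06. None of these 5 was called with the block.

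Of the 4 tropomyosins, which coat filaments and set what can bind them, TPM1 and TPM4 fell with the block. TPM4 was counted at 153, 121 and 131 CPM against 202, 172 and 176 CPM. There was no overlap (log2 fold change -0.44, SE 0.122, adjusted p 0.342, and 3.64e-07 with the block). TPM1 moved likewise (log2 fold change -0.38, SE 0.113, adjusted p 0.372, and 7.37e-06 with the block), again without overlap. The other two did not pass. TPM3 had a log2 fold change of -0.04, and TPM2, at 1.58, 2.67 and 1.66 CPM against 1.79, 2.10 and 1.18 CPM, had 0.22 in overlapping groups (SE 0.311, adjusted p 0.571 with the block). MYH9, the heavy chain of nonmuscle myosin IIA, fell by 23.3% with the block (adjusted p 1.65e-06). With the line alone its log2 fold change was -0.39 (SE 0.124, adjusted p 0.411). Its libraries did not overlap (643 to 738 CPM against 817 to 1007 CPM). MYH9 lies on chromosome 22, whose median was -0.15, and with chromosomes centred its value was -0.23 (adjusted p 0.00141). MYH10, the heavy chain of myosin IIB, had -0.13 (adjusted p 0.0658 with the block). The light chains MYL6, MYL12A and MYL12B had log2 fold changes from -0.12 to 0.01 and were not called. MYL9, the regulatory light chain of smooth muscle type, was near the limit of detection at 0.187 to 0.264 CPM against 0.280 to 0.763 CPM, with as few as 7 reads in a library (log2 fold change -1.28, SE 0.467, adjusted p 0.0608 with the block).

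**Figure D2:**
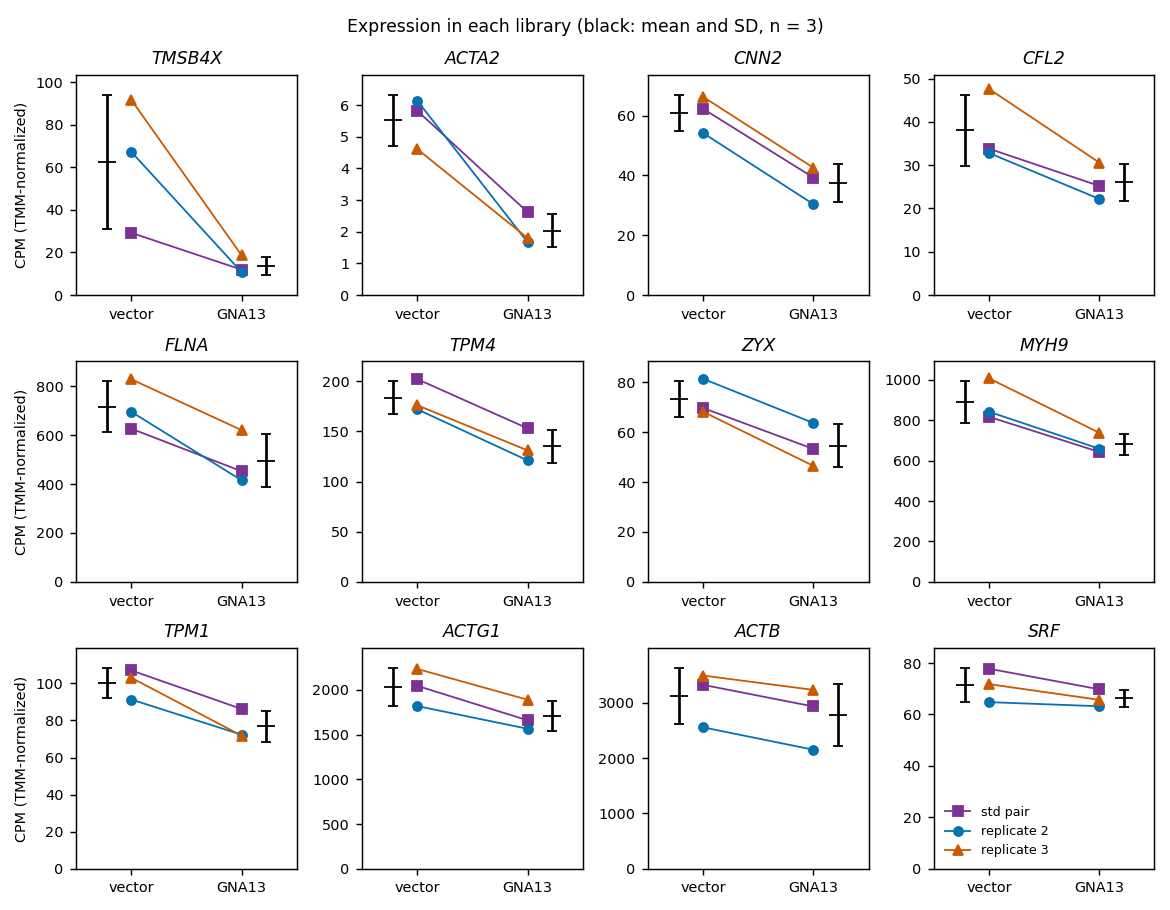
Expression in CPM of 12 members in each library, with lines joining the 2 libraries of a pair and black bars for the mean and SD of 3 libraries. In each panel all 3 lines slope down from pBabe-vector to pBabe-GNA13, and in ACTB the distance between replicates 2 and 3 is larger than the slope. All 12 belong to the 26 members lower in 3 of 3 pairs, so the shared slope follows from their choice.

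CNN2 encodes calponin 2, an actin-binding protein of nonmuscle cells. It stood at 39.3, 30.4 and 42.6 CPM against 62.3, 54.2 and 66.3 CPM. The highest pBabe-GNA13 library lay below the lowest pBabe-vector library, with a log2 fold change of -0.70 (SE 0.147, adjusted p 0.213, and 5.74e-10 with the block), and DESeq2 called it without the block (adjusted p 0.00715). Its relatives were not called. TAGLN, transgelin or SM22α, a standard SRF target of smooth muscle, was at 6.0, 8.61 and 5.81 CPM against 5.96, 6.97 and 4.30 CPM, in overlapping groups (log2 fold change 0.24, SE 0.239, adjusted p 0.19 with the block). TAGLN2, the transgelin of other tissues, measured 155, 126 and 242 CPM against 131, 131 and 209 CPM (log2 fold change 0.15, SE 0.276, adjusted p 0.107 with the block). Here replicate 3 was the highest library of both lines. CNN3 was near the limit of detection at 0.0295 to 0.204 CPM.

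Crosslinkers and adhesion plaque proteins fell for the most part with the block. FLNA, filamin A, which joins filaments into networks, was at 452, 415 and 620 CPM against 626, 695 and 828 CPM. The groups came close but did not overlap (log2 fold change -0.53, SE 0.180, adjusted p 0.434, and 4.8e-08 with the block). ACTN1, α-actinin 1, fell by 13.1% (adjusted p 0.00985 with the block), and its relative ACTN4 had a log2 fold change of -0.13 (0.0975 with the block). ZYX, zyxin, a protein of focal adhesions and stress fibers, fell by 25.7% without overlap (1.26e-06 with the block), and VCL, vinculin, which ties integrin adhesions to actin, fell by 10.8% in overlapping groups (0.0219 with the block). FHL2, a LIM protein and SRF partner, was counted at 0.436 to 0.739 CPM over all libraries. The ERM proteins EZR, MSN and RDX, which link filaments to the plasma membrane, had log2 fold changes from -0.09 to 0.02 and were not called.

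SRF was counted at 69.8, 63.2 and 65.7 CPM against 77.8, 64.8 and 71.8 CPM. The groups overlapped (log2 fold change -0.11, SE 0.101, adjusted p 0.91, and 0.159 with the block). MKL1 measured 21.7, 20.5 and 22.9 CPM against 23.3, 22 and 26.9 CPM, which overlap (log2 fold change -0.15, adjusted p 0.166 with the block). It lies on chromosome 22 too, and with chromosomes centred its value was 0.001025. MKL2 was at 70.1, 66.3 and 68.7 CPM against 77.4, 72.8 and 76.6 CPM. These groups did not overlap (log2 fold change -0.15, SE 0.0831, adjusted p 0.75, and 0.0442 with the block), though with chromosomes centred the adjusted p was 0.177.

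Of the 17 members called with the block, 14 were called with each of the 3 pairs left out, and all 17 kept their sign. The shares of all genes called with a pair left out were not computed, so these counts cannot be set against them. Without pair 3 ACTN1 (adjusted p 0.292), VCL (0.244) and MKL2 (0.286) were not called. VCL was not called without pair 2 either (0.0829). MKL2 was also not called without pair 2 (0.119) or without the std pair (0.114). With the line alone, leaving out 1 library moved ACTB between -0.30 (without pBabe-vector replicate 2) and -0.02 (without pBabe-GNA13 replicate 2). ACTR3 moved between -0.36 (without pBabe-GNA13 replicate 3) and -0.06 (without pBabe-GNA13 replicate 2), and it was -0.07 without pBabe-vector replicate 3. Without that same pBabe-vector library VCL was -0.04, ACTN1 -0.11, DSTN -0.16 and CFL2 -0.36, and without pBabe-GNA13 replicate 3 VCL was -0.27. With each chromosome centred as well, 13 members were called, all lower (26.5% beside 13.9% of all genes called, 7.04% lower and 6.83% higher). DSTN, ACTN1, VCL, MKL2 and ARPC3 were no longer called, and MYL6, on chromosome 12, was then called lower (-0.29, adjusted p 0.000564).

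Levels of related members can be set side by side per length. Per kilobase of the Ensembl canonical transcript, ACTB stood at 1725 ± 275 and ACTG1 at 1059 ± 108 CPM per kilobase in pBabe-vector, and ACTA2 at 4.09 ± 0.598. In pBabe-GNA13 the same order held, with ACTA2 at 1.51 ± 0.382. CFL1 (551 ± 39.0 in pBabe-vector) lay above DSTN (77.9 ± 9.44) and CFL2 (8.84 ± 1.92) in both lines. TMSB10 and TMSB4X did not differ beyond their spread in pBabe-vector (107 ± 35.9 and 101 ± 50.6), while in pBabe-GNA13 TMSB10 (103 ± 26.3) stood above TMSB4X (22.1 ± 6.87). In pBabe-vector TPM1 (82.3 ± 6.53) and TPM4 (74.1 ± 6.63) were likewise close, with TPM3 below them (39.7 ± 5.95) and TPM2 lowest (1.42 ± 0.390). Only 1 of the 9 ratios between relatives, PFN2 to PFN1, was higher in 3 of 3 pairs, and CFL2 to CFL1, TMSB4X to TMSB10, TPM1 and TPM4 to TPM3, MYH9 to MYH10 and ACTN1 to ACTN4 were lower in 3 of 3. No ratio passed after adjustment, since the smallest exact permutation p for 3 against 3 libraries is 0.1.

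**Figure D3:**
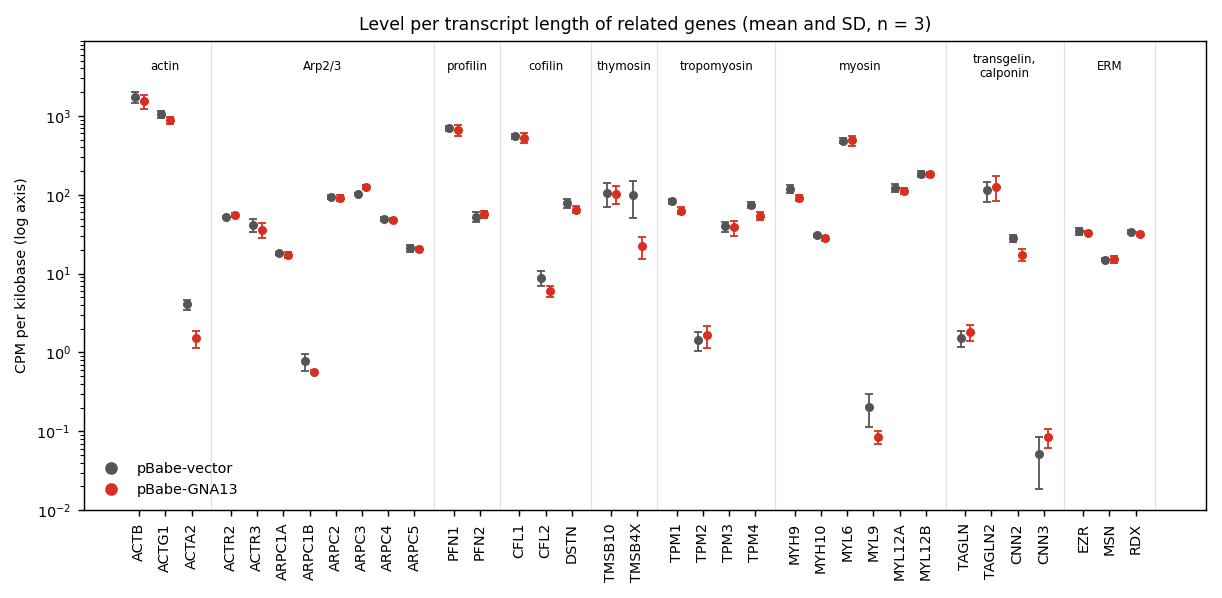
Level per transcript length on a log axis (CPM per kilobase, mean and SD of 3 libraries) of members that have a relative among the members, in pBabe-vector and pBabe-GNA13. The families mix abundant and rare members, and the points of the lines separate most in TMSB4X and ACTA2.

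Of the 49 members, 14 are textbook SRF targets. They were listed with earlier results of these data known, so the shares below describe these 14 and are no independent support. With the block 9 of these were called lower (ACTB, ACTG1, ACTA2, TPM1, VCL, ZYX, FLNA, MYH9 and CNN2) and 0 higher. That is 64.3% lower beside 10.4% of all genes and 12.5% of genes averaging 1 CPM or more. Lower in 3 of 3 pairs were 11, or 78.6%, beside 25.3% and 29.0%. The median log2 fold change of the 14 was -0.32, and with chromosomes centred 8 of them were called lower, where 7.04% of all genes were. The members with a CArG box in the window printed above included 5 called lower of 7, those with a window and no box 10 of 37, and those with no window 1 of 5. Of all genes 10.4% were called lower, and of genes averaging 1 CPM or more 12.5%. Of the 5 with a box, CNN2 fell the most and ACTN1 the least, and SRF, with 2 boxes, was not called.

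Of 28 further SRF targets outside the members, 26 were in the table (ACTA1 and ACTG2 were not), and with the block 5 were called lower and 2 higher. That is 19.2% lower beside 10.4% of all genes and 12.5% of genes averaging 1 CPM or more. The median log2 fold change of the 26 was 0.03, but -0.07 over the 14 of them that averaged 1 CPM or more. FLNC, the muscle filamin, was at 2.97, 2.67 and 2.35 CPM against 6.13, 8.86 and 6.54 CPM. The groups did not overlap (log2 fold change -1.43, SE 0.204, adjusted p 0.088, and 5.84e-08 with the block). TGFB1I1, the adhesion adaptor Hic-5, was at 0.321, 0.206 and 0.320 CPM against 0.715, 0.856 and 0.467 CPM (log2 fold change -1.26, adjusted p 0.391, and 0.037 with the block). TGFB1I1 was not called with chromosomes centred (adjusted p 0.0569), nor with the block without pair 2 (0.291) or without the std pair (0.1). The other three called lower were THBS1, PDLIM5 and PDLIM7, and those called higher were FOS and ITGA5, all named after their values were seen. FOS was not called without pair 2 (adjusted p 0.836), and its log2 fold change went down to -0.22 with 1 library left out. ITGA5 lies on chromosome 12, and with chromosomes centred its value was -0.08 (adjusted p 0.524). The ETS-type SRF cofactors, which serve growth factor response genes such as FOS, had 0 of 3 called with the block or without it and 0 with an unadjusted p under 0.05. ELK4 measured 147, 126 and 131 CPM against 136, 122 and 108 CPM (log2 fold change 0.14), ELK3 measured 11.9, 8.73 and 8.49 CPM against 11.4, 8.80 and 7.88 CPM (0.05), both in overlapping groups, and MYOCD was absent from the table.

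Of 39 other actin regulators in the table (VIL1 was not), 6 were called lower and 1 higher with the block. That is 15.4% lower, near the 12.5% of all genes averaging 1 CPM or more, and their median log2 fold change was -0.03. TWF1, twinfilin, which caps filaments and binds monomer, was the higher one, at 161, 177 and 168 CPM against 132, 142 and 130 CPM, without overlap (log2 fold change 0.33, 2.85e-05 with the block). It lies on chromosome 12, like ARPC3, and with chromosomes centred its value was 0.03. CORO1A, coronin 1A, which is best known from leukocytes, was at 1.61, 0.646 and 2.33 CPM against 2.89, 2.33 and 3.05 CPM. The highest pBabe-GNA13 library and the lowest pBabe-vector library were level (log2 fold change -0.85, SE 0.409, adjusted p 0.661, and 0.00351 with the block).

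**Figure D4:**
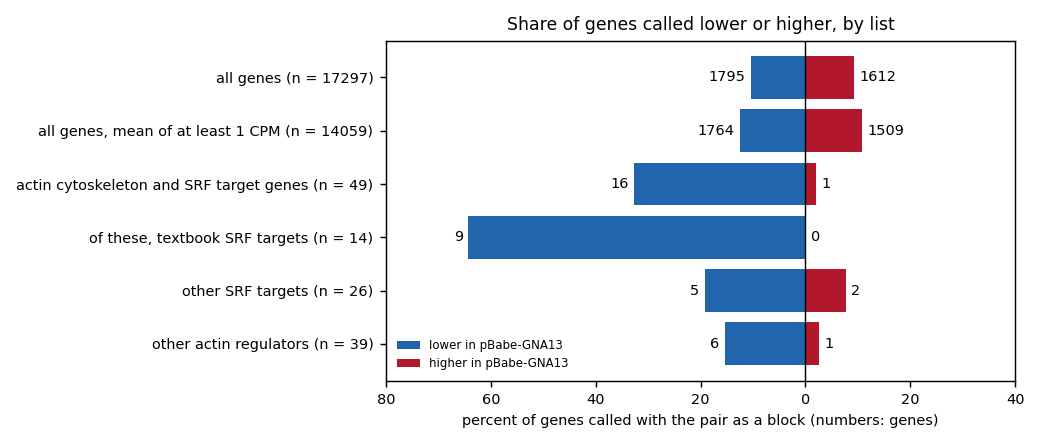
Percent of each gene list called lower (left) or higher (right) in pBabe-GNA13 with the pair as a block, with the number of genes beside each bar. The bar of the 14 textbook SRF targets reaches farthest to the left at 64.3%, and every list of actin or SRF target genes shown has more genes called lower than higher. These lists were chosen with earlier results of these data known.

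The members also varied among the cultures of a line. With the line as covariate, 31 of 49 differed among the 3 pairs of cultures (F test of the pair terms in edgeR). That is 63.3% beside 47.4% of all genes, though limma-trend called 13. Among the 14059 genes averaging 1 CPM or more, 7943 differed among the pairs, a larger share than over all genes. Between replicate 3 and replicate 2 cultures 29 members differed, or 59.2% beside 42.1% of all genes. Of genes averaging 1 CPM or more, 7005 of 14059 differed between these cultures, again a larger share than over all genes. Of the 29 members 24 were higher in replicate 3 and 5 lower, beside 20.7% and 21.4% of all genes. Here limma-trend called 17 in all. Its shares over all genes were not computed, so its counts cannot be set against those of edgeR. The size of the difference between replicate 3 and replicate 2 cultures exceeded that between the lines in 32 members, or 65.3%, no more than the 67.5% of all genes. Among members averaging 1 CPM or more DIAPH3 had the largest, at 34.8, 24.4 and 50.6 CPM in pBabe-GNA13 and 30.9, 25.8 and 48.9 CPM in pBabe-vector. Within each pair the lines lay close together, while replicate 3 was the highest and replicate 2 the lowest culture of both lines (log2 difference of replicate 3 minus replicate 2 0.98, SE 0.0790, adjusted p 8.06e-11). TAGLN2 followed with 0.81 (adjusted p 4.35e-10), and TMSB10, TPM2 and TAGLN went the other way, by -0.79, -0.74 and -0.62. ACTB differed by 0.52 between these cultures (SE 0.0587, adjusted p 4.42e-08) and by -0.18 between the lines with the block. For TMSB4X the order was reversed, with 0.56 between cultures and -2.10 between the lines. ACTA2 was not called between these cultures (-0.23, SE 0.204, adjusted p 0.414). Called for both the line and the cultures were 12 members, for the line only 5, for the cultures only 17 and for neither 15. Of all genes 19.7% were called for the line and 42.1% for the cultures, but their shares in the joint classes were not computed. What set these cultures apart was not given in the sources used here.

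**Figure D5:**
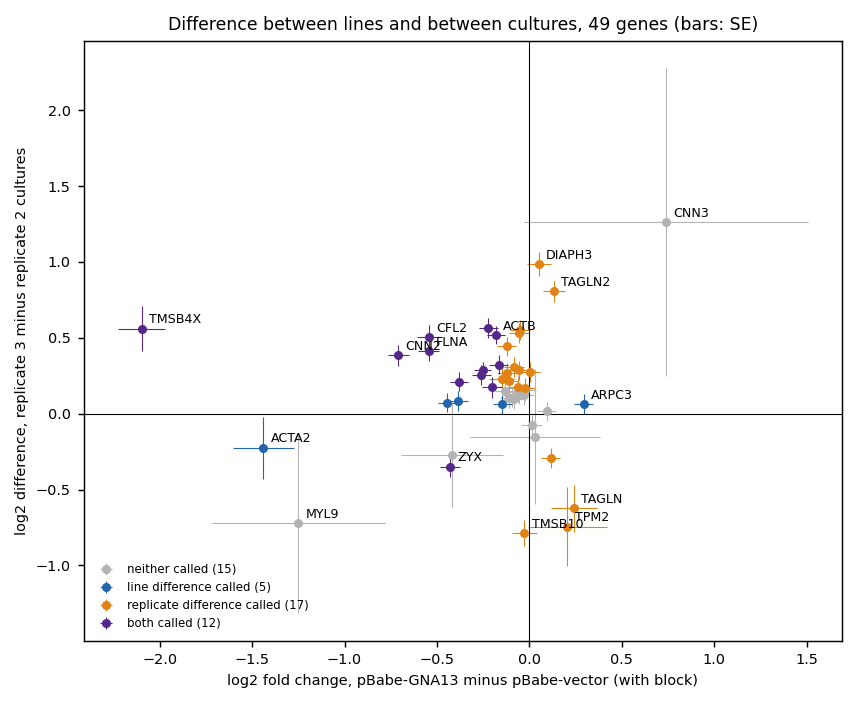
Log2 fold change between the lines with the pair as a block (horizontal) against the log2 difference of replicate 3 minus replicate 2 cultures (vertical) for the 49 members, with bars of 1 SE and colours for the calls at an adjusted p under 0.05. TMSB4X and ACTA2 lie far to the left, DIAPH3 and TAGLN2 lie high near the middle, and TMSB10, TPM2 and TAGLN lie low.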

How the data were processed

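The authors deposited a table named for CPM that holds raw counts of reads for each gene symbol, with 0 fractional values. Paired-end reads of 150 nucleotides were checked with FastQC 0.11.7, mapped by STAR (Gencode 38) and counted by featureCounts, as the study's methods and the submitters' processing notes say. All 6 columns were used and 0 left out. The heading of the pBabe-GNA13 std library repeats the number 2 and was tied to its line only. Library totals are given above. The floor of 3 reads corresponds to 0.0715 to 0.0935 CPM and covers counting error only, because without molecular identifiers reads are not separate molecules.

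Counts were normalized by TMM and tested in edgeR 4.0.16 (R 4.3.3) with glmQLFit and glmQLFTest over all genes, with no filter on low counts. CPM are TMM-normalized, log2 CPM uses a prior count of 2, and errors are SD over 3 libraries. Headings gave the pairs (the tag std, 2 and 3). Over 12778 genes, deviations from the group means correlated within pairs at r = 0.659 (std), 0.807 (replicate 2) and 0.888 (replicate 3), and at -0.736 to 0.125 between libraries of different pairs, so the numbers were taken to pair the libraries (across genes, which are not independent replicates). Within each line no 2 libraries were duplicates, with a chi-square per degree of freedom of 71.5 to 114. Libraries of different lines were not compared in this way. The alternatives were the pair as a block, upper-quartile scaling, a filter (filterByExpr), limma-trend (limma 3.58.1), DESeq2 1.42.0 with and without the block, leaving out each library or pair, and each chromosome centred on its median. A median over members with at least 1 CPM was added after seeing the data. Genes were matched to Gencode 44 for position and canonical transcript length (83.23% of symbols and all 49 members, 2 by an older symbol). SciPy 1.17.1 gave exact permutation tests.

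The members and lists were chosen with earlier results of these data known. Library values were given for members called without the block, for the 6 highest and 6 lowest log2 fold changes and the 5 largest differences between replicate 3 and replicate 2 cultures among members with at least 1 CPM, for SRF, MKL1, MKL2, ACTB, ACTG1 and ACTA2, and for the 2 genes with the smallest p of each other list reported. A further list is not reported here. Counts were simulated for pBabe-GNA13 against pBabe-vector over 17297 genes. They were drawn from a fit that held the pair, so an advantage of the block was built in. The fit with the line alone recovered 0 of 100 genes changed by 0.5 and 39 of 100 changed by 1.0 on the log2 scale. The fit with the block recovered 84 and 97, with 14 false calls.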

Additional observations from a re-analysis of the deposited data

How the results depend on the processing

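The number of members called depended on the pairing of libraries. With the line alone 0 members were called lower and 0 higher. The replicate block gave 16 lower and 1 higher, DESeq2 3 lower, and the replicate block in DESeq2 15 lower and 1 higher. With the block and 1 pair left out, 14 to 17 were called lower and 1 to 2 higher, and with the block and each chromosome centred 13 lower. The shares of all genes called with a pair left out, or by DESeq2 with the block, are not given here. The 17 calls given in the report are those the block changed, and it changed the call of no other member. Members differing among the replicate pairs numbered 13 and those differing between replicate 3 and replicate 2 cultures 17 by limma-trend, which was run in the same paired design. The shares of all genes it calls were not computed. Upper-quartile scaling, limma-trend and the filter changed no call of the line alone and no direction, and 47 members passed the filter. Of the 49 members 29 kept their sign under every alternative, TMSB4X and ACTA2 among them, and the sign-changing 20 had main log2 fold changes of at most 0.295 in size. With chromosomes centred ARPC3 (-0.00115), MYL6 (-0.2906), FHL2 (-0.03672) and MKL1 (0.001025) crossed 0. With 1 library or pair left out, the log2 fold change ran in ARPC1A from -0.11 to 0.00301, ARPC2 from -0.0855 to 0.0482, ARPC5 from -0.0985 to 0.0586, DIAPH1 from -0.21 to 0.15, DIAPH3 from -0.24 to 0.37, PFN1 from -0.15 to 0.0444, CFL1 from -0.11 to 0.0641, TMSB10 from -0.30 to 0.16, CAPZB from -0.11 to 0.0199, TPM2 from -0.0651 to 0.41, TPM3 from -0.19 to 0.12, MYL6 from -0.0619 to 0.12, MYL12B from -0.11 to 0.0489, TAGLN2 from -0.16 to 0.41, ACTN4 from -0.28 to 0.0553, FHL2 from -0.23 to 0.21, EZR from -0.12 to 0.0264 and MSN from -0.0654 to 0.0738. Depth limits MYL9, CNN3 and FHL2, whose counts fell to 7, 1 and 14 reads in a library.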
